A study of Mus musculus with 3 samples.

Results

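Aminoacyl-tRNA synthetases are the enzymes that join each amino acid to its tRNA, the step at which the genetic code is read into charged tRNA for the ribosome. Cells keep a cytosolic set and a mitochondrial set, both encoded in the nucleus, and the mitochondrial enzymes serve translation of the few proteins made inside the organelle. Each enzyme has a catalytic domain of class I or class II, and several of the cytosolic enzymes sit together with scaffold proteins in the multisynthetase complex. Many cytosolic synthetase genes are known targets of Atf4, the transcription factor of the amino acid stress response.

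The members were chosen by gene symbol, and all 36 listed synthetase symbols were found among the 12852 genes of the table, 20 for cytosolic enzymes and 16 for mitochondrial ones. RNA sequencing had been done on B16F10, a pigmented mouse melanoma line. There were 2 Med23 knockdown libraries, titled siMed23A and siMed23B, and 1 control library, titled siCtrl and labelled wild type. Med23 is a subunit of Mediator, which links transcription factors to RNA polymerase II, and by its title the series asked how Med23 bears on pigmentation and DNA repair through Mitf. The labels do not give the time after knockdown, nor whether the knockdown libraries were separate cultures or different siRNAs, so p-values measure only the spread between these libraries, which may be technical.

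Med23 itself was 1.65 and 1.61 RPKM in the knockdown libraries and 5.23 RPKM in the control library. Its log2 ratio was -1.24 (SE 0.11; adjusted p = 0.0012 by limma), and it lost its call when the control was allowed an SD 3 times as large as the knockdown libraries had (adjusted p = 0.108 by limma). RPKM, the read number scaled to transcript length and library size, was deposited after the 3 libraries had been brought to the same distribution, so the read depth is unknown and a change in total mRNA cannot be seen. The 7 melanocytic markers were all listed, between 9.003 and 2359 RPKM in the control library, and all 7 were lower after knockdown (median log2 ratio -1.39 by limma). Their summed level was 2977 and 2868 RPKM in the knockdown libraries and 6923 RPKM in the control library, and the part of this shift in the synthetase values was not tested. Of 18 markers of fibroblasts, immune, endothelial and epithelial cells 4 were listed, with summed levels of 10.96 and 11.4 RPKM in the knockdown libraries and 17.8 RPKM in the control library. Most of that sum was Cd68, a lysosomal protein, and the part of other cells in the results below was not tested.

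The synthetase genes did not move as a block. Of the 34 with a mean of at least 1 RPKM, which were the ones tested, 5 rose (Qars, Kars, Fars2, Mars2 and Lars2), 9 fell (Wars, Dars, Lars, Gars, Eprs, Hars, Vars2, Iars2 and Rars2) and 20 stayed short of the threshold, an adjusted p of 0.05 in limma. Among all 9722 tested genes 50.3% passed, 26.3% as higher and 24% as lower, so the 41.2% of synthetases that passed was no larger a share than in the whole table. The median log2 ratio of knockdown over control was -0.05 for the synthetases and 0.01 for all tested genes. These ratios are on the log2(RPKM + 1) scale, which understates changes of low values. The fit drew its spread from the knockdown libraries, with the single control assumed to vary as they do. With an SD for the control 2 times as large, 2 synthetases (Qars and Fars2) were higher and 4 (Wars, Dars, Eprs and Gars) lower, against 8.33% and 7.03% of all tested genes. With an SD 3 times as large 0 were higher and 1, Wars, was lower, against 1.21% and 0.792% of all tested genes. By fold alone on the log2(RPKM + 1) scale, 2 of the 34 tested synthetases (Qars and Fars2) were at least 1.5-fold higher in both knockdown libraries. At least 1.5-fold lower were 3 (Wars, Vars2 and Iars2), against 10.5% higher and 9.98% lower of all tested genes. In plain RPKM, Mars2 and Rars2 were also past 1.5-fold in both libraries, Mars2 as higher and Rars2 as lower. Pars2, under 1 RPKM on average and not tested, was past 1.5-fold lower in both libraries on either scale.

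**Figure D1:**
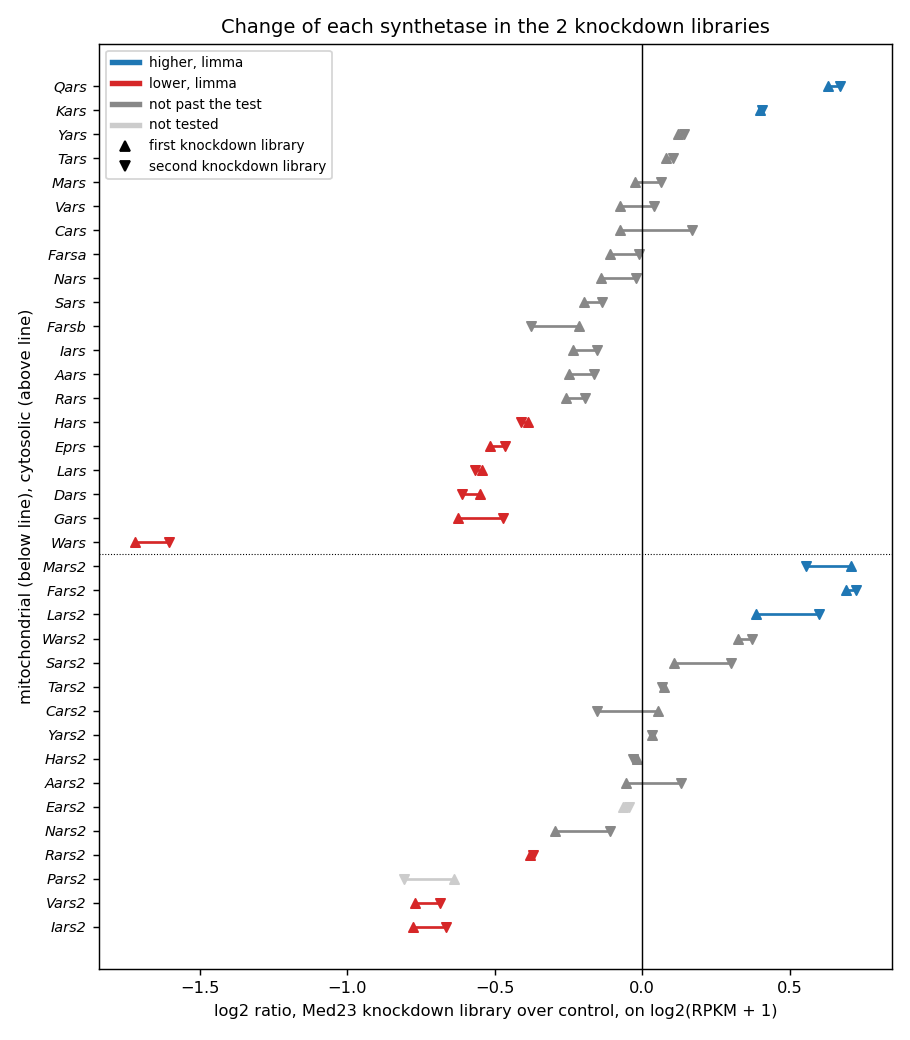
Change of each synthetase gene in the 2 Med23 knockdown libraries, as the log2 ratio of a knockdown library over the control library on the log2(RPKM + 1) scale (x axis), with 1 row per gene, cytosolic enzymes above the dotted line and mitochondrial enzymes under it. Triangles are single libraries and colours give the limma result; Wars stands alone at the left with ratios of -1.72 and -1.60, and the other tested genes lie between -0.78 and 0.73.

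Wars, the cytosolic tryptophanyl-tRNA synthetase, had the largest fall of the tested synthetases. It was 10.9 and 11.9 RPKM in the knockdown libraries and 38.1 RPKM in the control library, a 3.35-fold lower mean. The knockdown libraries lay close together and far under the control. The log2 ratio was -1.66 (SE 0.09; adjusted p = 0.000356 by limma), the 49th largest fall among the 9722 tested genes. Wars was the only tested synthetase past 2-fold in both libraries on this scale, where 2.57% of all tested genes were 2-fold higher and 2.83% 2-fold lower. It was also the only one still called when the control was given an SD 3 times as large (adjusted p = 0.0413 by limma). In human cells Wars is known as an interferon-inducible gene.

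The cytosolic genes differed widely in level. Gars was the most abundant, at 152 and 169 RPKM in the knockdown libraries and 235 RPKM in the control library. Sars, for serine, followed with 149 and 156 RPKM in the knockdown libraries and 171 RPKM in the control library. Both were lower in each knockdown library than in the control, though Sars did not pass the test (limma adjusted p = 0.0522). At the other end stood Farsa, the catalytic subunit of phenylalanyl-tRNA synthetase, with 3.96 and 4.31 RPKM in the knockdown libraries and 4.34 RPKM in the control library. Its partner subunit Farsb, which joins it in an enzyme of equal numbers of both chains, was 27.9 and 24.8 RPKM in the knockdown libraries and 32.5 RPKM in the control library, so the mRNAs of the pair differed several-fold in every library. Neither subunit passed the test. The median level of the 20 cytosolic genes was 25.1 and 24.1 RPKM in the knockdown libraries and 29.7 RPKM in the control library, and their summed level was 877 and 918 RPKM in the knockdown libraries against 1079 RPKM in the control library.

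**Figure D2:**
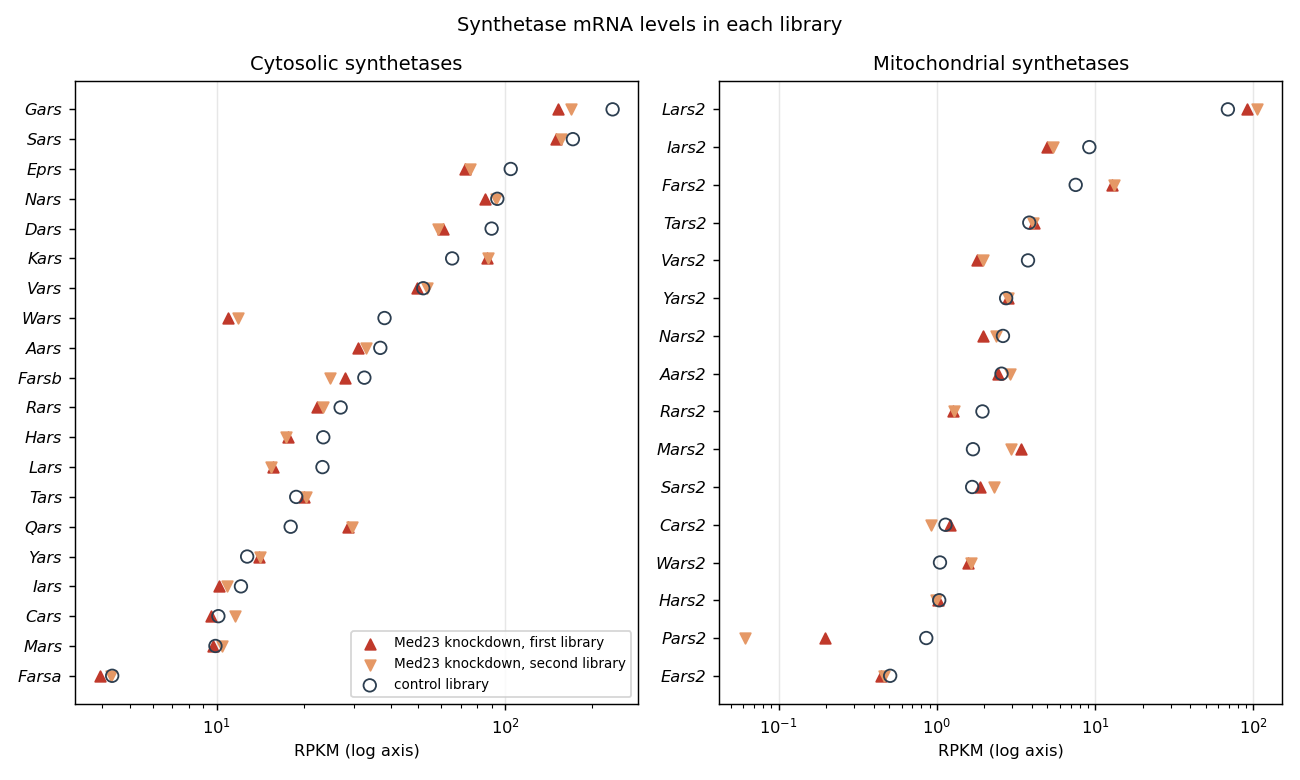
RPKM of every synthetase gene (x axis, log scale) in the 2 Med23 knockdown libraries (triangles) and the control library (open circles), with cytosolic enzymes on the left and mitochondrial enzymes on the right, ordered by control level. Cytosolic genes span 4.34 RPKM (Farsa) to 235 RPKM (Gars) in the control library, whereas most mitochondrial genes lie under 10 RPKM and Lars2 stands apart at 69.1 RPKM.

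Most cytosolic genes that passed the test were lower, 6 of the 20, with 2 higher and 12 not past the test. These are 40.0% called, against 50.3% of all tested genes, of which 24% were lower and 26.3% higher. In 13 of the 20 both knockdown libraries were below the control, in 4 both were above it and in 3 the control lay between them. Among all tested genes 44.2% had both knockdown libraries below the control and 46.6% had both above. The median log2 ratio of the cytosolic genes was -0.18. Of the 9 genes with a class I catalytic domain 1 rose and 2 fell (median log2 ratio -0.02), and of the 10 with class II 1 rose and 3 fell (median -0.19), with Eprs, which holds both, left out of this count.

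Gars, for glycine, and Kars, for lysine, each make both the cytosolic and the mitochondrial enzyme from the same gene, and they went opposite ways. Gars fell by 0.55 on the log2 scale (SE 0.07; adjusted p = 0.00353 by limma), with the values given above. Kars was 86.6 and 87.0 RPKM in the knockdown libraries and 65.4 RPKM in the control library. Both knockdown values were above the control and nearly equal, with a log2 ratio of 0.40 (SE 0.06; adjusted p = 0.00453 by limma). With an SD 2 times as large for the control, Kars was no longer called (adjusted p = 0.0557 by limma), whereas Gars was (adjusted p = 0.0461).

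Qars, the glutaminyl-tRNA synthetase, showed the larger rise of the cytosolic pair that rose. It was 28.5 and 29.3 RPKM in the knockdown libraries and 18.04 RPKM in the control library, a 1.60-fold higher mean and a log2 ratio of 0.65 (SE 0.08; adjusted p = 0.00267 by limma). Dars, for aspartate, was 60.9 and 58.3 RPKM in the knockdown libraries and 89.6 RPKM in the control library. This was a 1.503-fold lower mean, with a log2 ratio of -0.58 (SE 0.07; adjusted p = 0.00218 by limma). Lars, for leucine, fell by about as much, with 15.6 and 15.4 RPKM in the knockdown libraries and 23.2 RPKM in the control library (log2 ratio -0.55, SE 0.08, with adjusted p = 0.00497 by limma). Eprs, a single protein that charges both glutamate and proline tRNAs, was 72.7 and 75.4 RPKM in the knockdown libraries and 104 RPKM in the control library. Its log2 ratio was -0.49 (SE 0.06; adjusted p = 0.00292 by limma), which a correction for transcript length and GC content brought to -0.27 (adjusted p = 0.0123). Hars, for histidine, had 17.7 and 17.4 RPKM in the knockdown libraries and 23.4 RPKM in the control library, a log2 ratio of -0.40 (SE 0.08; adjusted p = 0.0128 by limma). In each of these 5 genes the gap between the knockdown libraries was smaller than the gap of either to the control.

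The other cytosolic genes stayed within a log2 ratio of -0.30 (Farsb) and 0.13 (Yars) and did not pass the test. Rars, Aars and Iars, for arginine, alanine and isoleucine, had log2 ratios of -0.23, -0.21 and -0.19, with both knockdown libraries below the control. Nars, for asparagine, was 85.01 and 92.4 RPKM in the knockdown libraries and 93.8 RPKM in the control library. Yars, for tyrosine, and Tars, for threonine, had log2 ratios of 0.13 and 0.09, with both knockdown libraries above the control. For Vars, Mars and Cars, which serve valine, methionine and cysteine, the control value lay between the knockdown values. Vars was 49.3 and 53.5 RPKM in the knockdown libraries and 51.9 RPKM in the control library. A test that was not passed does not show that these levels were equal.

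The genes of the multisynthetase complex moved in both directions, scaffolds included. Among its 8 synthetases, Qars and Kars rose, Dars, Lars and Eprs fell, and Iars, Mars and Rars did not pass the test. Aimp1, a scaffold of the complex whose fragment is also a secreted cytokine, was 131 and 133 RPKM in the knockdown libraries and 82.5 RPKM in the control library. Its log2 ratio was 0.68 (limma adjusted p = 0.000886). Eef1e1, also called Aimp3, was 24.7 and 24.2 RPKM in the knockdown libraries and 17.96 RPKM in the control library (log2 ratio 0.43, limma adjusted p = 0.00972). Aimp2, the core scaffold, went the other way, with 7.51 and 7.60 RPKM in the knockdown libraries and 10.2 RPKM in the control library (log2 ratio -0.39, limma adjusted p = 0.0219). All 3 scaffold genes therefore passed the test, 2 as higher and 1 as lower, as did 62.5% of the 8 synthetases. Among all tested genes 50.3% passed, 26.3% as higher and 24% as lower, so calls in both directions were not particular to the complex.

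**Figure D3:**
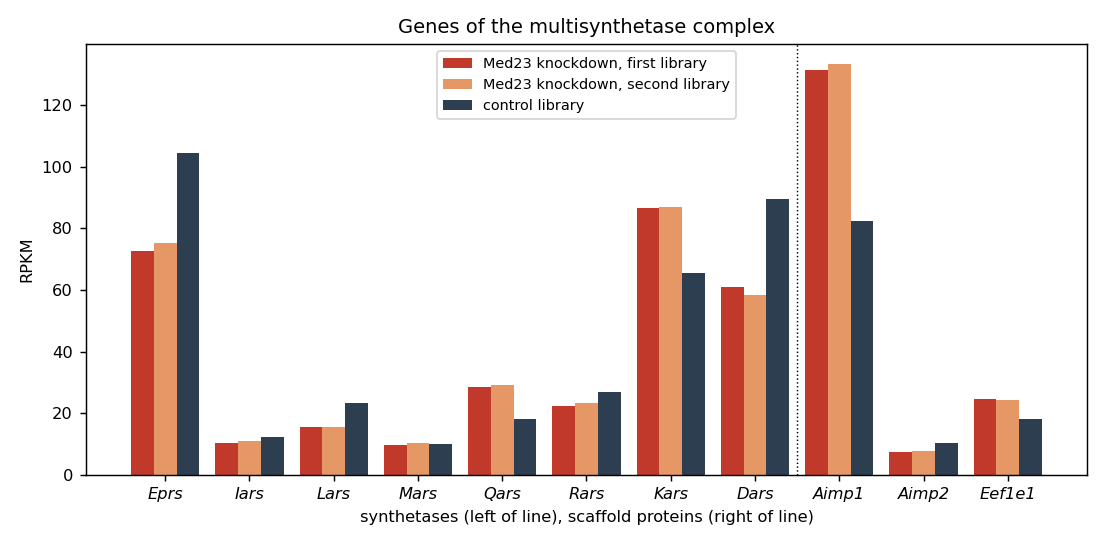
RPKM (y axis) of the 8 synthetases and the 3 scaffold proteins of the multisynthetase complex, with bars for the first and second Med23 knockdown library and the control library. Qars, Kars, Aimp1 and Eef1e1 are higher in both knockdown libraries, and Eprs, Lars, Dars and Aimp2 are lower.

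Mitochondrial synthetase genes were expressed at lower levels, with a median of 1.92 and 2.33 RPKM in the knockdown libraries and 2.25 RPKM in the control library. Lars2, for leucine, stood apart from the rest with 90.6 and 105 RPKM in the knockdown libraries and 69.1 RPKM in the control library. Because of Lars2, the summed level of the 16 genes was 132 and 149 RPKM in the knockdown libraries and 111 RPKM in the control library. Without it the sum was 41.9 and 43.4 RPKM in the knockdown libraries and 42.2 RPKM in the control library. Of the 14 mitochondrial genes above the filter, 3 rose, 3 fell and 8 were not called, with a median log2 ratio of 0.04. The 42.9% called was no larger a share than the 50.3% of all tested genes, of which 26.3% were higher and 24% lower.

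Fars2, the mitochondrial phenylalanyl-tRNA synthetase, had the largest rise of all tested synthetases on the log2(RPKM + 1) scale. It was 12.8 and 13.1 RPKM in the knockdown libraries and 7.55 RPKM in the control library, a 1.72-fold higher mean and a log2 ratio of 0.71 (SE 0.09; adjusted p = 0.00337 by limma). Mars2, for methionine, was 3.40 and 2.95 RPKM in the knockdown libraries and 1.69 RPKM in the control library. In plain RPKM its mean was 1.88-fold higher, a larger rise than that of Fars2. Both knockdown values were above the control, though they differed from each other more than those of Fars2 did, and the log2 ratio was 0.63 (SE 0.12; adjusted p = 0.0110 by limma). After the correction for length and GC content it was 1.14, against 0.68 for Fars2. Lars2, with the values above, had a log2 ratio of 0.49 (SE 0.10; adjusted p = 0.0114 by limma).

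The mitochondrial genes that fell were Vars2, Iars2 and Rars2, for valine, isoleucine and arginine. Vars2 was 1.80 and 1.97 RPKM in the knockdown libraries and 3.77 RPKM in the control library, a 2.01-fold lower mean. Its log2 ratio was -0.73 (SE 0.12; adjusted p = 0.00563 by limma). Iars2 was 4.96 and 5.44 RPKM in the knockdown libraries and 9.20 RPKM in the control library, with a log2 ratio of -0.72 (SE 0.11; adjusted p = 0.00512 by limma). Rars2 was 1.26 and 1.28 RPKM in the knockdown libraries and 1.94 RPKM in the control library, with a log2 ratio of -0.37 (SE 0.11; adjusted p = 0.0400 by limma), the weakest call among the synthetases, and with a pseudocount of 0.1 in place of 1 the log2 ratio was -0.58 (adjusted p = 0.0454 by limma). In all 3 genes both knockdown libraries were below the control by more than they differed from each other.

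Pars2 and Ears2, the mitochondrial enzymes for proline and glutamate, were under 1 RPKM on average and were not tested. Pars2 was 0.195 and 0.0612 RPKM in the knockdown libraries and 0.858 RPKM in the control library, so both knockdown values were lower. At such levels a value may rest on few reads, and the depth is unknown. With no filter on low values Pars2 was called lower (log2 ratio -0.72, limma adjusted p = 0.00782). Ears2 was 0.442 and 0.463 RPKM in the knockdown libraries and 0.508 RPKM in the control library, and it was not called without the filter (adjusted p = 0.560).

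Of the mitochondrial genes that did not pass, Wars2, for tryptophan, was nearest to the threshold. It was 1.57 and 1.65 RPKM in the knockdown libraries and 1.05 RPKM in the control library, with a log2 ratio of 0.35 (SE 0.11; adjusted p = 0.0502 by limma). Sars2 had 1.88 and 2.30 RPKM in the knockdown libraries and 1.67 RPKM in the control library, and Nars2 had 1.95 and 2.36 RPKM in the knockdown libraries and 2.62 RPKM in the control library. In both genes the knockdown libraries lay on the same side of the control but apart from each other. Tars2, Yars2 and Hars2 had log2 ratios of 0.07, 0.03 and -0.02. For Aars2 and Cars2 the control lay between the knockdown libraries.

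Set beside each other by amino acid, cytosolic and mitochondrial enzymes moved alike in some pairs and apart in others. There were 15 such pairs for 14 amino acids, since Farsa and Farsb share Fars2. In 5 pairs both knockdown libraries were below the control for the cytosolic gene and above it for the mitochondrial gene, namely Wars and Wars2, Lars and Lars2, Sars and Sars2, and each cytosolic phenylalanine subunit with Fars2. Lars and Lars2 were the only pair in which both genes passed the test, and with an SD 2 times as large for the control neither did (adjusted p = 0.0597 for Lars and 0.107 for Lars2, by limma). In 8 pairs 1 of the genes passed and in 6 neither did, and whether the members of a pair differed in their change was not tested. Among all tested genes 46.6% had both knockdown libraries above the control, 44.2% had both below and 50.3% passed the test. Opposite sides are therefore also common between genes that are not paired.

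The balance of levels within a pair shifted most for tryptophan. The RPKM of Wars was 6.95 and 7.18 times that of Wars2 in the knockdown libraries and 36.4 times in the control library. For valine the shift ran the other way, with Vars at 27.4 and 27.2 times the level of Vars2 in the knockdown libraries and 13.8 times in the control library. For threonine the ratio of Tars to Tars2 was 4.87 and 4.99 in the knockdown libraries and 4.91 in the control library, so that here the control lay between them. The cytosolic gene was the more abundant of the pair in 13 of the 15 in the control library, the exceptions being Lars, with 0.336 times the level of Lars2, and Farsa, with 0.576 times that of Fars2.

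**Figure D4:**
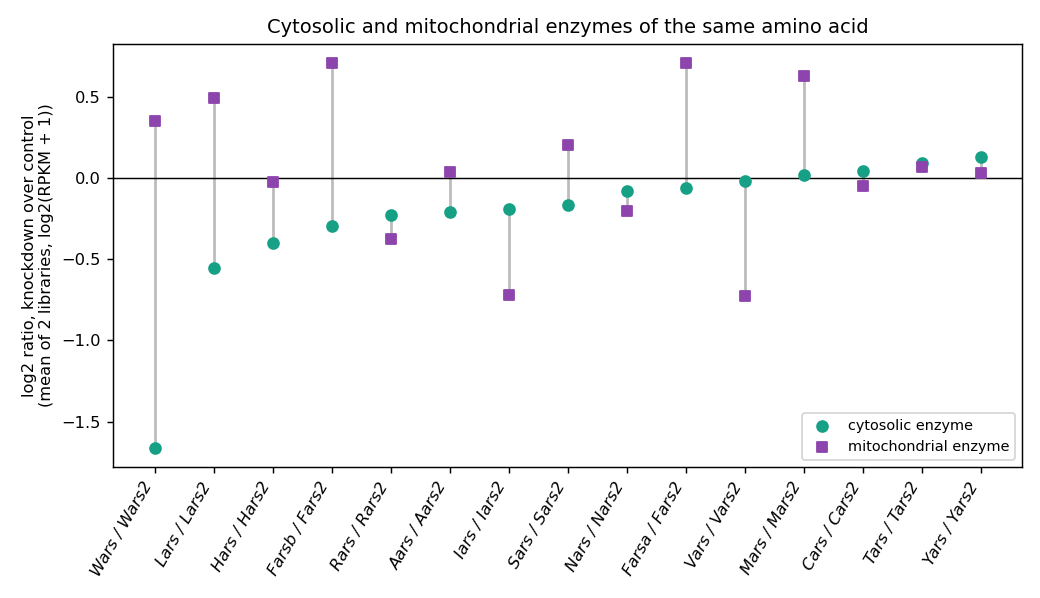
Log2 ratio of knockdown over control (y axis, mean of the 2 knockdown libraries on the log2(RPKM + 1) scale) for 15 pairs of cytosolic (circles) and mitochondrial (squares) synthetases of the same amino acid, joined by grey lines. The longest line is that of tryptophan, from -1.66 for Wars to 0.35 for Wars2; Fars2 is drawn with both Farsa and Farsb.

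The amino acid response through Atf4 was examined because it is a known driver of cytosolic synthetase genes. Atf4 mRNA, named here after its values were seen, was 180 and 196 RPKM in the knockdown libraries and 97.0 RPKM in the control library, a log2 ratio of 0.95 (limma adjusted p = 0.000639). Of 25 tested genes of this response outside the synthetases, 11 rose, 7 fell and 7 were not called, with a median log2 ratio of 0.17. Ppp1r15a, which restores translation after stress, rose with a log2 ratio of 2.81, Nupr1, a stress-induced chromatin protein, with 1.57, and Cebpb, a partner of Atf4 on DNA, with 1.57. Psph, the last enzyme of serine synthesis, fell with a log2 ratio of -1.10, with limma adjusted p-values for these 4 genes between 0.000112 and 0.00242. The response genes thus went both ways too, with 72.0% past the test against 50.3% of all tested genes.

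Atf4 and its partners bind a composite element whose core can be written TGATGNAA, and the promoters of the members were searched for it. RefSeq promoter windows of 300 bases (250 before the transcription start and 50 after it, mouse build GRCm38.p6) were at hand for 27 of the 36 members, 13 cytosolic and 14 mitochondrial. The element, read on both strands, was found for 5 cytosolic and 0 mitochondrial members, and in 3.97% of all 32851 windows. A member was counted if any of its windows held the element, so counts of members and the share of windows are unlike measures. The matches are shown because Atf4 mRNA rose in these libraries. The 30 bases around the match nearest to the start of each gene follow, 5′ to 3′ along the gene's strand, with the element in capitals.
Aars: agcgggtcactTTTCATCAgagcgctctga
Gars: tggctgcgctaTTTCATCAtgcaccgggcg
Tars: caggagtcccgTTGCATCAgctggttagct
Iars: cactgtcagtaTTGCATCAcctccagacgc
Yars: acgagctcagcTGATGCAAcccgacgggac

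The windows lie at chr8:111033840-111033869 (Aars, plus strand), chr6:55037960-55037989 (Gars, plus strand), chr15:11399655-11399684 (Tars, minus strand), chr13:49682126-49682155 (Iars, plus strand) and chr4:129189895-129189924 (Yars, plus strand). The element ended 22 bases before the start in Gars and 7 before it in Tars, while the matches shown for Aars, Iars and Yars lay in the first transcribed bases. Iars and Tars share the letters TTGCATCA, of which the match in Yars is the reverse complement, and Aars and Gars share TTTCATCA.

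None of the 5 genes with the element rose past the test, where 26.3% of all tested genes were higher and 24% lower. With so few genes, a difference from those shares was not tested. Gars fell, and Aars, Iars, Tars and Yars did not pass, with both knockdown libraries below the control for Aars and Iars and above it for Tars and Yars. Aars was 30.9 and 32.8 RPKM in the knockdown libraries and 36.9 RPKM in the control library. Tars was 19.99 and 20.4 RPKM in the knockdown libraries and 18.9 RPKM in the control library. The median log2 ratio was -0.19 for the 5 genes with the element and -0.11 for the 8 cytosolic genes whose window did not hold it, of which 2 rose, 2 fell and 4 were not called. No promoter window was at hand for the cytosolic genes Cars, Hars, Lars, Nars, Rars, Vars and Wars, so they stand in neither group. A match of letters does not show that a factor binds there, and these data hold no binding.

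Other genes that serve tRNA charging were read from 2 further lists. Of 9 tested genes for proofreading of charged tRNA, mitochondrial glutaminyl-tRNA synthesis and formylation, 2 rose, 0 fell and 7 were not called by limma. The 22.2% called was a smaller share than the 50.3% of all tested genes, of which 26.3% were higher and 24% lower. At an unadjusted limma p under 0.05 the counts were also 2 higher and 0 lower. Of all 9722 tested genes 5655 were under that limit, 2700 of them lower. Among the genes of this list that rose was Aarsd1, a free-standing editing protein for mischarged alanine tRNA, with a log2 ratio of 0.43 (limma adjusted p = 0.0156). Of 20 tested genes for tRNA maturation and export, 8 rose, 3 fell and 9 were not called, with a median log2 ratio of 0.19. The 55.0% called was near the 50.3% of all tested genes. Rpp21 and Pop5, subunits of the ribonuclease that trims the 5′ end of tRNA, rose with log2 ratios of 0.93 and 0.81, and Tsen15, of the tRNA splicing endonuclease, rose with 0.60. Hsd17b10, which also serves in mitochondrial RNase P, rose with 0.53. The 3 falls, picked out once the values were known, were Xpot, an exporter of tRNA from the nucleus, Elac1, a nuclease that trims the 3′ end, and D10Wsu52e, the tRNA ligase, with log2 ratios of -0.51, -0.49 and -0.31 and adjusted p-values of 0.0140, 0.0431 and 0.0173 by limma. Xpot was 3.34 and 3.46 RPKM in the knockdown libraries and 5.26 RPKM in the control library.

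**Figure D5:**
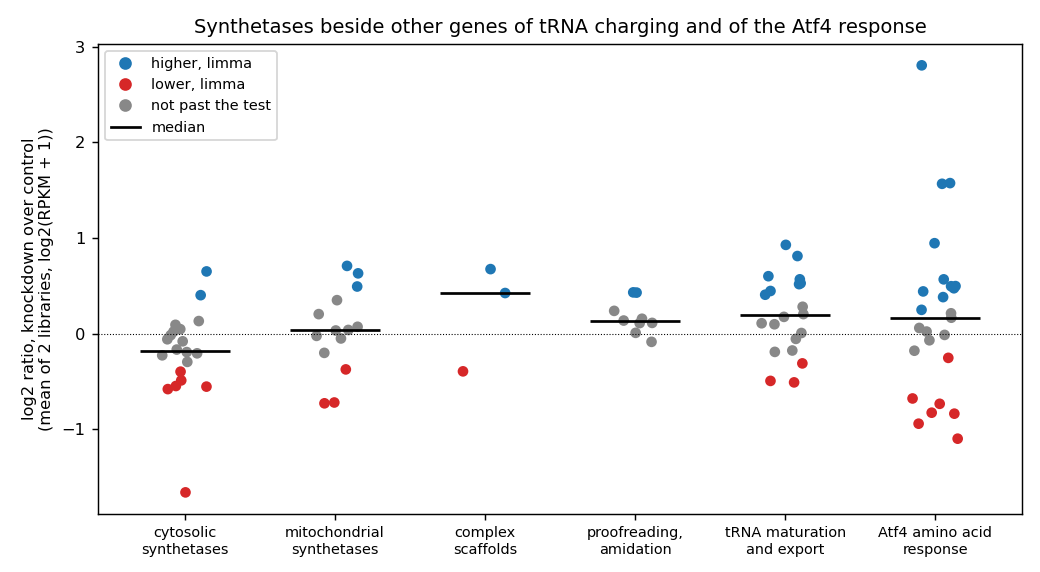
Log2 ratio of knockdown over control (y axis, mean of the 2 knockdown libraries on the log2(RPKM + 1) scale) of the tested genes of 6 lists, each point a gene coloured by its limma result and each bar the median. The medians of the cytosolic and mitochondrial synthetases are -0.18 and 0.04, and that of the Atf4 response genes is 0.17 with points from -1.10 to 2.81.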

How the data were processed

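RNA sequencing covered 3 libraries of B16F10 cells, 2 of Med23 knockdown and 1 of control cells. Total RNA was extracted with Trizol and a column kit, per the labels' protocols. The authors deposited RPKM values for 12852 genes, and CASAVA 1.4, Cufflinks, TopHat and build mm9 are listed without roles, per the submitters' processing notes. The sorted columns were equal (relative difference under 1e-09) at 95.3% of positions, so the deposited RPKM had been quantile normalized. The depth is therefore unknown and no counting interval is given. The header puts both knockdown titles in 1 cell, so neither column was given 1 of the titles, and "first" and "second" knockdown library refer to column position.

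Values were analysed as log2(RPKM + 1) for the 9722 genes that averaged 1 RPKM or more, with limma 3.58.1 in R 4.3.3 (lmFit, eBayes with an intensity trend) and Benjamini-Hochberg adjustment over all of them, threshold 0.05. The fit had 1 residual and 4.37 prior degrees of freedom. Members and lists were chosen with earlier results of these data known. The named-gene rule took up to 8 rises and 8 falls past the test by the smaller ratio of both libraries, plus Eprs, Kars, Gars and Wars, and up to 4 genes of each other list; Hars, Rars2 and the remaining members are named because every member is accounted for. Other settings tried were dropping the filter or raising it to 5 RPKM, a pseudocount of 0.1, rescaling, no intensity trend, a control SD 2 or 3 times as large, a loess fit on GC content and transcript length (GENCODE M21, 98.1% of genes) and leaving out each knockdown library. The annotation is of another build than mm9, so only the RefSeq promoter windows carry coordinates. Tables were read with Python 3.11.15 and pandas 2.3.3.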

Additional observations from a re-analysis of the deposited data

How the results depend on the processing

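The numbers of synthetases higher and lower, 5 and 9, stayed between 4 and 6 and between 7 and 12 with a pseudocount of 0.1, no filter, a minimum of 5 RPKM (22 members left), rescaled libraries, no intensity trend or the loess correction. The share of all tested genes called under those settings was not counted, so calls gained or lost there may not be particular to the synthetases. With an SD for the control 2 times as large they were 2 and 4, and with 3 times 0 and 1, because the control then adds more to the error. The fold limit of 1.5 in both libraries was passed by 5 tested synthetases, a limit of 2 by 1, and by 7 when either knockdown library was left out. The log2 ratio of Med23 was -1.24 and lost its call with an SD for the control 3 times as large (adjusted p = 0.108); with either library left out it was -1.25 or -1.23. No called synthetase changed sign under the settings run. Uncalled genes near 0 changed sign under the loess correction, Cars to -0.0024, Mars to -0.041, Aars2 to -0.038 and Yars2 to -0.019, and the cause was not tested. Cars, Mars, Aars2, Vars and Cars2, whose control lay between the knockdown libraries, also changed sign when a knockdown library was left out. Rars, Sars, Farsb and Wars2 gained a call under the loess correction, Farsb also with rescaled libraries and Wars2 also with a pseudocount of 0.1 or no intensity trend. Leaving out a knockdown library leaves no residual degrees of freedom and so no test. No paired analysis was possible because the columns carry no replicate numbers and the control is single.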

Other observations

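Wars fell in the same libraries in which Irf1, an interferon-induced transcription factor, was higher, a gene picked after its values were seen. Irf1 was 24.1 and 24.2 RPKM in the knockdown libraries and 6.02 RPKM in the control library, with a log2 ratio of 1.84 (SE 0.09; adjusted p = 0.000239 by limma). Whether the changes of Irf1 and Wars are linked was not tested.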
